A study of Mus musculus with 6 samples.

Results

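The genes described here are 36 genes of DNA replication and mitosis that mark dividing cells, taken by name from a list of S phase and mitotic genes, and found in the deposited count table by Ensembl ID. All 36 were among the 43432 gene IDs of the table and all 36 were among the 17172 genes counted often enough to be tested. RNA sequencing was done on mTEC, the epithelial cells of the thymic medulla, which present antigens of many other tissues to T cells during their development. The WT group was 3 libraries from Copa+/+ mice and the MUT group 3 libraries from CopaE241K/+ mice, all of strain C57BL/6 and 4 weeks old. Copa is the gene of a coat protein (COPI subunit alpha) of the vesicles that return from the Golgi to the endoplasmic reticulum, and the mutant mice carry 1 allele with the change E241K beside 1 normal allele. The genotype is that of the whole mouse, so mTEC, thymocytes and other thymic cells of a MUT mouse share it. The labels do not say whether a library came from 1 mouse or from a pool, so the spread between libraries may be partly technical.

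A dividing cell copies its DNA in S phase and separates the copies in mitosis. Cyclins switch on cyclin-dependent kinases to drive each step, and many genes of both steps are transcribed only in cycling cells, the replication genes under E2F factors and the mitotic genes later under the MuvB complexes and FoxM1. In the medulla, immature mTEC divide on their way to the Aire-expressing stage, mature Aire-expressing cells are mostly out of cycle, and thymocytes, the T cell precursors, also divide. In bulk RNA, fewer cycling cells and less RNA per cycling cell cannot be told apart.

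The libraries held 19934513 to 23366238 counts, and 17174 to 24774 gene IDs had at least 1 count, with WT 1 the lowest and MUT 3 the highest. Mitochondrially encoded genes held 17.1%, 18.9% and 11.1% of counts in WT 1, 2 and 3. In MUT 1, 2 and 3 they held 16.0%, 21.3% and 9.14%. Levels are given as CPM, counts scaled to library sizes that were adjusted by the TMM method. The 16 markers of medullary epithelium summed to 11550 to 14350 CPM in WT and 10890 to 12990 CPM in MUT, with Aire at 929 to 1563 CPM across all 6 libraries, as the label says. The libraries also held RNA of genes that mark other cells. Since mTEC present antigens of many other tissues, RNA of other cells and of mTEC themselves cannot be told apart here. The 18 thymocyte markers summed to 503, 1132 and 420 CPM in WT 1, 2 and 3 and to 412, 1289 and 281 CPM in MUT 1, 2 and 3, so that both libraries numbered 2 stood apart. None of the 18 was at 0 in all libraries, although Ptcra, the pre-T cell receptor gene, had 0 counts in WT 1 and MUT 1. The markers of dendritic cells and macrophages summed to 682 to 1265 CPM in WT and 615 to 1146 CPM in MUT, and those of cortical epithelium to 549 to 819 and 563 to 1150 CPM. The 4 markers shared by leukocytes summed to 785 to 1492 CPM in WT and 802 to 1516 CPM in MUT, highest in WT 2 and MUT 2. Markers of B cells, fibroblasts, endothelium and erythroid cells reached at most 154 CPM per list in any library. Copa itself averaged 399.7 CPM (SD 151, n = 3) in the WT libraries and 347.6 CPM (SD 43.6, n = 3) in the MUT libraries, and this level does not check the genotype, because E241K alters 1 residue.

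The promoters of the members, which the choice of members did not use, were searched for 3 sequence elements known from cell cycle genes. RefSeq windows of 300 bases on GRCm38.p6, from 250 bases before the gene's start to 50 after it, were matched for 30 of the 36 members (18 mitotic and 12 S phase genes), and Ccna2, Aurkb, Tpx2, Mcm4, Gins2 and Ccne2 had no entry. The CHR element (TTTGAA), to which MuvB complexes bind, was found on either strand in 13 of 18 mitotic and 1 of 12 S phase members, against 20.2% of all 27025 genes with a window (17.9% of the 32851 windows, since a gene can have several). A CCAAT box (CCAAT), the site of the factor NF-Y, was found in 16 of 18 and 8 of 12, against 41.1% of genes. An E2F site (TTTCCCGC, TTTCGCGC, TTTGCCGC or TTTGGCGC) was found in 1 of 18 and 6 of 12, against 2.60% of genes. All 14 members with a CHR element also had a CCAAT box, a pairing found in 8.97% of all genes. None of the 3 elements was found for 4 of the 30 members, Birc5, Nusap1, Tyms and Ccne1, and for 46.5% of all genes. Within the members' windows, matches of different motifs overlapped once. A match describes the letters only and no binding was measured.

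The 150 bases before the start of 6 members follow, 5′ to 3′ on the gene's own strand, with every match of these elements in capitals (ATTGG and TTCAAA are CCAAT and CHR on the other strand). They were picked to set the mitotic kinase Cdk1 and its B cyclins beside 2 helicase genes with E2F sites and beside Ccne1, whose levels separated the genotypes. The starts here are those of RefSeq. Gene coordinates given below are from GENCODE and can reach further out, so part of a stretch, as for Cdk1, Ccnb1 and Ccne1, lies inside the gene by those coordinates.
Cdk1, chr10:69352913-69353062, minus strand: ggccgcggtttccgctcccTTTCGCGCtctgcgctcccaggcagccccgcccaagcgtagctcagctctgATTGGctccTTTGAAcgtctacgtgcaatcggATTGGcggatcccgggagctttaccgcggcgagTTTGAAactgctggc
Ccnb1, chr13:100786487-100786636, minus strand: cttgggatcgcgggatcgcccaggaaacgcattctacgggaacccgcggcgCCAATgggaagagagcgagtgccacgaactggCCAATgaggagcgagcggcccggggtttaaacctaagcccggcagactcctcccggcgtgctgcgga
Ccnb2, chr9:70421555-70421704, minus strand: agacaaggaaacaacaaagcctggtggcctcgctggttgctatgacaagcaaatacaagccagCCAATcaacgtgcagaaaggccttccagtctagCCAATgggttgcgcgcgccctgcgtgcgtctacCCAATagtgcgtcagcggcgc
Mcm6, chr1:128359706-128359855, minus strand: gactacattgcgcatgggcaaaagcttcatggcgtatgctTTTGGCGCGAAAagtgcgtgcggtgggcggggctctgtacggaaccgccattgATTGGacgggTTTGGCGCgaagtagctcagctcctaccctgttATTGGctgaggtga
Mcm5, chr8:75109359-75109508, plus strand: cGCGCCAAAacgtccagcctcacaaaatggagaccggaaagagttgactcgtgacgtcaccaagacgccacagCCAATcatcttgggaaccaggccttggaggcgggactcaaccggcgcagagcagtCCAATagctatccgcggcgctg
Ccne1, chr7:38107491-38107640, minus strand: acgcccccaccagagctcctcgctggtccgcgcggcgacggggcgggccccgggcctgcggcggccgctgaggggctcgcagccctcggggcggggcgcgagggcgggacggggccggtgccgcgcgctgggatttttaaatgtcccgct
Cdk1 shows all 3 kinds of element, with CHR at 71 and 15 bases before the start. Ccnb1 and Ccnb2 show 2 and 3 CCAAT boxes, and the CHR matches of Ccnb2 lie outside the stretch printed. Mcm6 has 2 overlapping E2F matches on opposite strands, and the window of Ccne1 held none of the 3 motifs as spelled here.

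The question of the comparison was how expression in mTEC differs between CopaE241K/+ and Copa+/+ mice. No cell cycle gene separated the genotypes beyond the spread between libraries in the test across all genes. Of 36 members, 19 had a fitted log2 fold change (MUT minus WT) above 0 and 17 below, with a median of 0.11, beside 49.4% above 0 and a median of -0.01 over all genes tested. The order of the medians turned in some other fits, at 0.094 for 34 members and 0.158 for all genes in DESeq2. DESeq2 was run without the count filter, so its median over all genes took in genes that the filter removes. With the size factors of DESeq2 in edgeR on the filtered genes, the medians were 0.094 and -0.025. In edgeR's quasi-likelihood test with Benjamini-Hochberg adjustment, 0 members and 0 of all 17172 genes (0% of genes) had an adjusted p under 0.05, the lowest adjusted p being 0.99988. At an unadjusted p under 0.05 there were 3 of 36 members, Ccna2, Ccnb2 and Nusap1, all lower in MUT, where 3.48% of all genes had such a p (1.85% lower and 1.62% higher). DESeq2 called 1 member, Ccne1, where it called 0.621% of all genes, and gave no adjusted p for Ccnb2 and Birc5. Called members numbered 0 in limma-voom (0% of all genes called), in edgeR without a filter (0.253%), in edgeR with the replicate number as a block (0.00582%) and in DESeq2 with that block (1.74%). For 24 of 36 members the fitted difference was no larger than its own standard error (SE), and the median SE was 0.97. The direction of 14 members turned when 1 library was left out. The count filter removed no member, although 8 members reached its level in all 3 MUT libraries and not in all 3 WT libraries. The reverse held for 0 members. The 8 fell short in WT 1 (Aurkb, Bub1, Bub1b and Gins2), in WT 2 (Cdk1, Plk1 and Aurka) or in both (Birc5). WT 1 had under 10 counts for 21.9% of all genes tested, the largest such share of any library, and WT 2 for 11.2%. How many of all genes reached the filter level in this 1-sided way was not counted, so the 8 are not read as a genotype difference.

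**Figure D1:**
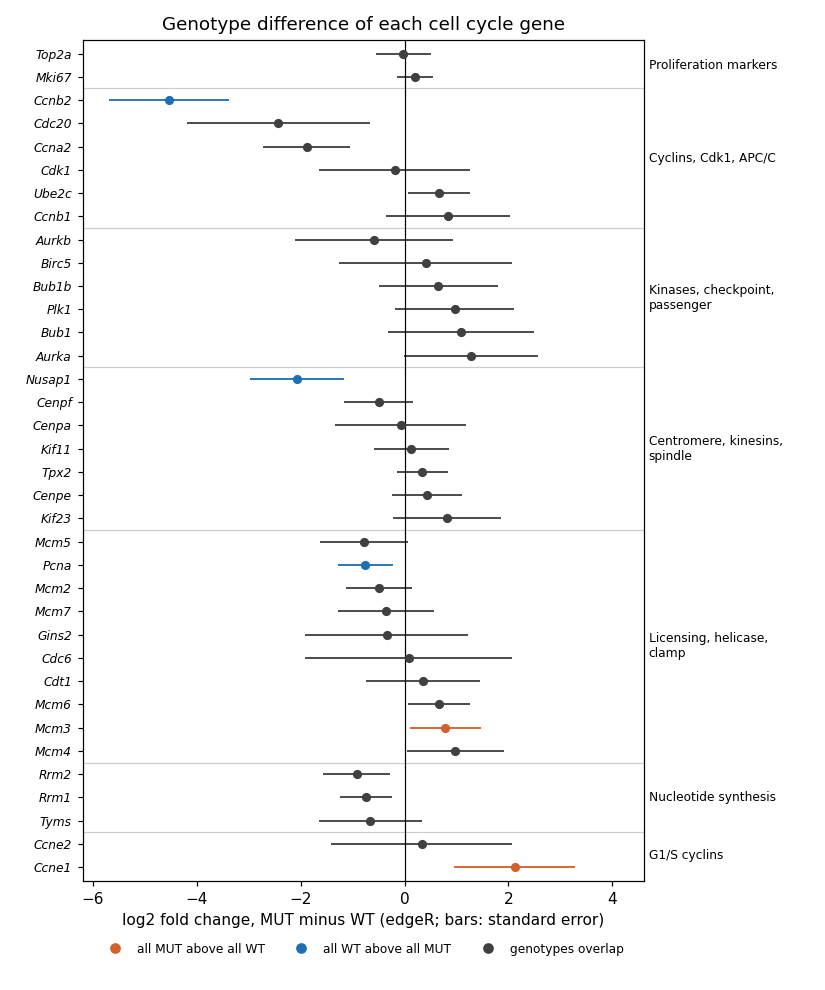
Fitted log2 fold change, MUT minus WT, of each of the 36 genes with its standard error (edgeR, 3 libraries per genotype), grouped by role. Most bars cross 0, Ccnb2 lies lowest at -4.54, and the 5 coloured genes are those whose libraries did not overlap between genotypes.

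The genotypes did not overlap for 5 members, or 13.9%, where 9.35% of all genes tested did not overlap. Mcm3 and Ccne1 were higher in every MUT library than in any WT library, where 5.39% of all genes were. Ccnb2, Nusap1 and Pcna were lower in every MUT library, where 3.96% of all genes were. Both counts rest on few genes, and the 5 come from 4 different roles, with Pcna and Mcm3 of the same role on opposite sides.

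Ccne1 and Ccne2 encode the E cyclins, which activate the kinase Cdk2 at the entry into S phase. Ccne1 (chromosome 7, 38097984 to 38107534) measured 3.50, 2.21 and 3.61 CPM in WT 1, 2 and 3. In MUT 1, 2 and 3 it measured 13.9, 16.0 and 10.6 CPM. The counts behind these values were 61, 47 and 82 in WT and 295, 334 and 294 in MUT, and the lowest MUT library lay well above the highest WT library. The log2 fold change was 2.12 (SE 1.16, unadjusted p 0.093), between 1.91 and 2.26 with any 1 library left out. Its adjusted p was 0.028 in DESeq2 but 0.21 in DESeq2 with the replicate number as a block, so the call depended on the tool and the model. Ccne2 overlapped fully between genotypes, at 0.92, 2.35 and 3.92 CPM in WT and 5.52, 1.10 and 2.42 CPM in MUT (fitted log2 fold change 0.33, SE 1.74).

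Mki67 and Top2a, the chromosome surface protein and the DNA untangling enzyme most used to mark cycling cells, overlapped between genotypes. Mki67 (chromosome 7, 135689784 to 135716361) measured 274, 172 and 313 CPM in WT and 238, 249 and 384 CPM in MUT. The log2 fold change was 0.20 (SE 0.35), and it turned to -0.058 without MUT 3 and -0.03 without WT 2. Top2a (chromosome 11, 98992943 to 99024189) measured 112, 61.0 and 85.8 CPM in WT and 104, 32.5 and 119 CPM in MUT, with a log2 fold change of -0.02 (SE 0.52). Mki67 varied least of the 36 genes, with an SD of log2 CPM of 0.39 over the 6 libraries, and for Top2a the number 2 library was the lowest of its genotype in both.

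Among the mitotic cyclins, their kinase Cdk1 and the parts of the ubiquitin ligase APC/C that ends mitosis, single libraries set most of the differences. Ccnb2, a B-type cyclin gene (chromosome 9, 70407692 to 70421547), measured 23.7, 1169 and 52.8 CPM in WT 1, 2 and 3 and 18.6, 19.8 and 15.2 CPM in MUT 1, 2 and 3. WT 2 held 24815 counts where no other library had more than 1200, and was 22.1-fold above the next. Only 48 of all genes tested, or 0.28%, had a library this far above the next, and Ccnb2 was the 1 member above a 10-fold gap. The log2 fold change of -4.54 (SE 1.16, unadjusted p 0.0021) became -1.11 without WT 2, although the other WT libraries still lay above all MUT libraries. Its counted pseudogene held at most 33 counts in any library.

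The other B cyclin did not share this pattern. Ccnb1 (chromosome 13, 100778650 to 100786570) measured 3.27, 5.32 and 9.07 CPM in WT and 5.52, 18.8 and 7.26 CPM in MUT, with a fitted log2 fold change of 0.84 (SE 1.19) that was 0.11 without MUT 2. Its highest library was MUT 2, and the genotypes overlapped. Cdk1, the kinase that both cyclins activate (chromosome 10, 69335146 to 69352938), measured 7.18, 0.33 and 17.6 CPM in WT and 1.56, 8.96 and 11.5 CPM in MUT. Its log2 fold change was -0.19 (SE 1.45) and changed sign with the fit. The library with the most Ccnb2, WT 2, held 7 counts of Cdk1, the fewest of any library.

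Ccna2, the A-type cyclin of S phase and early mitosis, had its highest value in WT 1, at 207 CPM, with 44.6 and 44.8 CPM in WT 2 and 3. In MUT it measured 4.53, 48.4 and 27.3 CPM, so that MUT 2 lay above 2 of the WT libraries. The log2 fold change was -1.89 (SE 0.84, unadjusted p 0.045) and -0.75 without WT 1. Ccna2 overlaps the gene Exosc9, whose reads may enter its count. Cdc20, which directs the APC/C in mitosis, ranged from 0.10 CPM in MUT 2 to 90.1 CPM in WT 2. Ube2c, the ubiquitin-conjugating enzyme of the same complex, stayed between 24.0 and 68.7 CPM in all libraries (log2 fold change 0.66, SE 0.60).

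The mitotic kinases, the spindle checkpoint genes and the chromosomal passenger genes were low and uneven. Plk1, a kinase of spindle and centrosome maturation (chromosome 7, 122159439 to 122169873), measured 23.6, 0.42 and 11.6 CPM in WT and 34.4, 24.6 and 10.7 CPM in MUT (fitted log2 fold change 0.97, SE 1.14). Aurka, the centrosomal Aurora kinase gene (chromosome 2, 172356190 to 172370535), measured 22.1, 0.28 and 4.58 CPM in WT and 24.4, 35.4 and 5.60 CPM in MUT (1.28, SE 1.28). Both were nearly missing from WT 2, at 9 and 6 counts, and both were lowest among the MUT libraries in MUT 3. Without WT 2 the log2 fold changes were 0.39 and 0.71, and without WT 1 they were 1.94 and 3.15.

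Aurkb and Birc5 encode the kinase and the survivin subunit of the chromosomal passenger complex, and Bub1 and Bub1b encode checkpoint kinases at the kinetochore. All 4 had under 10 counts in WT 1, where they measured 0.06 CPM for Aurkb, 0.11 for Birc5, 0.29 for Bub1 and 0.23 for Bub1b. Outside WT 1 they ranged from 2.4 to 19.6 CPM for Aurkb, from 0.38 to 16.3 for Birc5, from 2.83 to 24.5 for Bub1 and from 18.7 to 29.7 for Bub1b. Fitted log2 fold changes ran from -0.60 for Aurkb to 1.09 for Bub1, each smaller than its SE. Added up, the 6 kinase and checkpoint genes gave 46.4, 52.7 and 82.5 CPM in WT and 99.2, 96.4 and 98.9 CPM in MUT without overlap, while none of the 6 alone separated the genotypes. The sums were 60.5 ± 19.3 and 98.1 ± 1.52 CPM (SD, n = 3), and the 2 lowest were those of the libraries with the most members under 10 counts.

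Genes of the centromere, the mitotic kinesins and the spindle overlapped between genotypes with 1 exception. Nusap1, a microtubule-binding spindle protein gene (chromosome 2, 119618298 to 119651244), measured 89.9, 16.3 and 15.7 CPM in WT and 9.58, 4.50 and 14.7 CPM in MUT. WT 3 and MUT 3 were nearly equal, and WT 1 was 5.52-fold above the next library. The log2 fold change was -2.08 (SE 0.90, unadjusted p 0.040) and -0.74 without WT 1. Nusap1 overlaps the gene Oip5, and since the strand setting of the counting is not given in the sources used here, reads of the overlap could belong to either. Tpx2, the activator of Aurora A on the spindle (chromosome 2, 152847964 to 152895321), measured 40.6, 79.8 and 39.1 CPM in WT and 75.2, 66.1 and 60.9 CPM in MUT (fitted log2 fold change 0.34, SE 0.49, but 0.75 without WT 2 and 0.16 without WT 3). Fitted values for the motor and centromere genes Kif11, Kif23, Cenpa, Cenpe and Cenpf ran from -0.50 to 0.82, all within their SE. The 7 genes summed to 233 ± 47.7 CPM in WT and 231 ± 80.9 CPM in MUT.

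The replication genes lay on both sides of 0, and their sum was level. Pcna, the sliding clamp of the DNA polymerases (chromosome 2, 132249162 to 132253314), measured 83.8, 47.8 and 46.7 CPM in WT and 39.2, 30.0 and 36.4 CPM in MUT. Every MUT library lay below every WT library, with a log2 fold change of -0.76 (SE 0.53, unadjusted p 0.18) and -0.43 without WT 1. Its 2 counted pseudogenes could take reads from it, and they held at most 45 counts in any library. Mcm3, a subunit of the replicative helicase, measured 9.71, 21.7 and 28.4 CPM in WT and 34.5, 37.6 and 31.3 CPM in MUT (0.79, SE 0.68, or 0.45 without WT 1), the opposite order.

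The helicase is a ring of 6 different subunits, Mcm2 to Mcm7, and the 6 genes fell on both sides. Fitted values were above 0 for Mcm3, Mcm4 (0.98, SE 0.94) and Mcm6 (0.67, SE 0.60) and below 0 for Mcm2 (-0.49, SE 0.64), Mcm5 (-0.79, SE 0.85) and Mcm7 (-0.36, SE 0.92). Mcm4 measured 1.32, 27.1 and 41.8 CPM in WT and 29.0, 72.0 and 37.4 CPM in MUT. Mcm5 measured 60.8, 28.4 and 20.4 CPM in WT and 26.3, 3.40 and 33.8 CPM in MUT, highest where Mcm4 was lowest and lowest where Mcm4 was highest. Summed over the 6 genes the genotypes overlapped, at 166 ± 14.8 CPM for WT and 188 ± 30.6 CPM for MUT. Mcm7 overlaps Cops6 and Ap4m1, whose reads may enter its count.

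Gins2 and Cdc6 were uneven between libraries. Gins2, part of the active helicase, had 1 count in WT 1 and 409 in WT 3, and Cdc6, which loads the helicase, had 1 count in WT 1, 0 in MUT 2 and 236 in MUT 3. Cdt1, its partner in loading, ranged from 2.03 CPM in MUT 1 to 33.1 CPM in MUT 2. All 3 overlapped between genotypes, with fitted values from -0.35 to 0.36 and SEs of 1.10 to 1.99. All 10 replication genes together summed to 245, 255 and 256 CPM in WT and 209, 292 and 253 CPM in MUT, which is 252 ± 6.22 and 251 ± 41.4 CPM.

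The nucleotide synthesis genes, which supply the DNA building blocks, were fitted below 0 for all 3 members. Rrm1, the large subunit of ribonucleotide reductase (chromosome 7, 102441695 to 102469771), measured 42.2, 80.5 and 76.3 CPM in WT and 40.3, 33.2 and 45.4 CPM in MUT (fitted log2 fold change -0.74, SE 0.51). Rrm2, the small subunit (chromosome 12, 24708241 to 24714146), measured 31.5, 70.1 and 31.6 CPM in WT and 15.1, 22.4 and 32.7 CPM in MUT (-0.92, SE 0.65, or -0.45 without WT 2). Tyms, thymidylate synthase, had a value of -0.66 (SE 1.00), which turned to 0.36 without WT 2. WT 2 was the highest library for all 3 and MUT 3 the highest in MUT, and in each the genotypes overlapped.

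**Figure D2:**
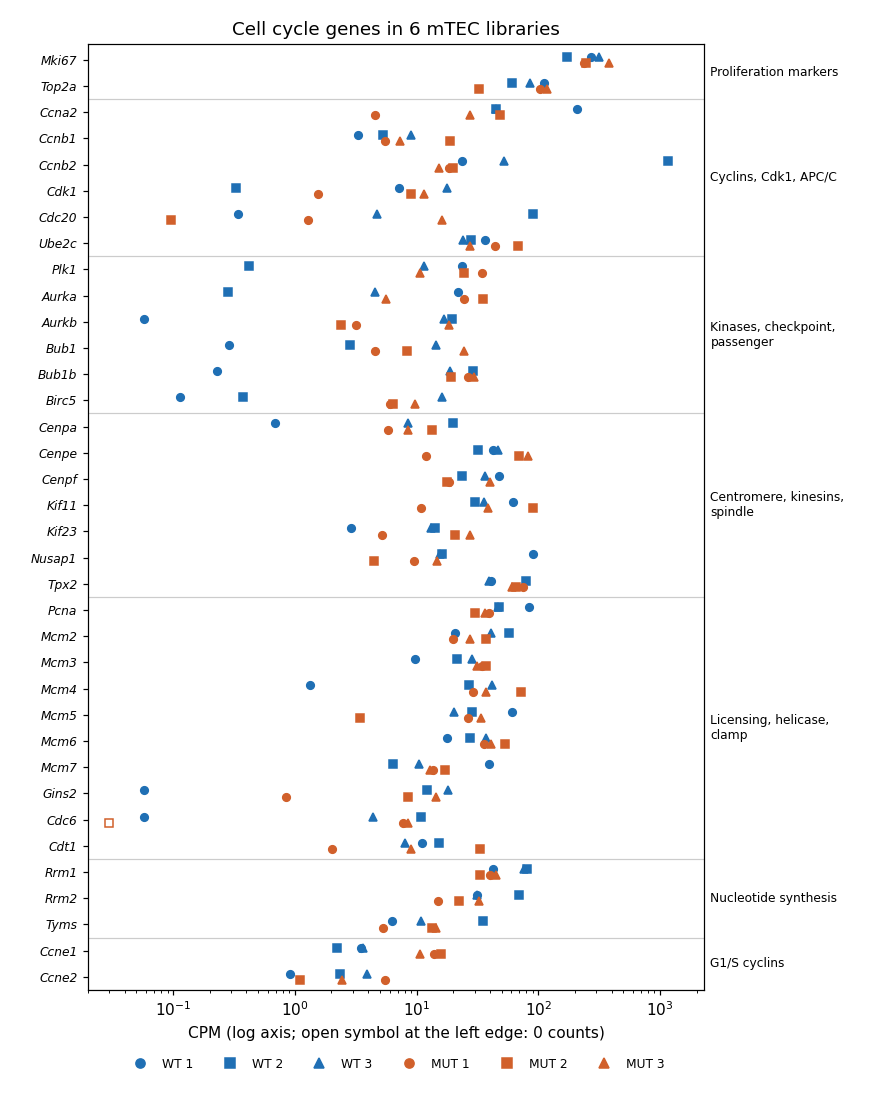
CPM of the 36 genes in each of the 6 libraries on a log axis, blue for WT and orange for MUT, with the symbol shape giving the replicate number. The colours of Ccne1 do not overlap, and Ccnb2 stands alone at 1169 CPM in WT 2. The scattered points on the left are mostly genes nearly missing from WT 1, WT 2 or MUT 2.

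Per kilobase of annotated exon, the highest mean over the 6 libraries belonged to Ccnb2, at 141 CPM per kb, followed by Mki67 at 27.0, Pcna at 19.7, Ccna2 at 15.4 and Ube2c at 14.6. In MUT, where no library stood far out, Ccnb2 and Mki67 measured 11.7 and 28.8 CPM per kb, so the first rank came from WT 2. The lowest were Cdk1 at 1.59, Cdc6 at 1.00 and Ccne2 at 0.77 CPM per kb. Exon lengths were the union over all annotated transcripts, which lowers the value of genes with long rare isoforms.

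The 36 genes varied between libraries about as widely as other genes did, and pairs of them were correlated little more than other pairs of genes. The median SD of log2 CPM over the 6 libraries was 1.21 for the members and 1.18 for all genes tested. Across the 6 libraries, which all points share, the 630 pairs of members had a median Pearson r of 0.067, and 53.5% of pairs were above 0. Over all 147430206 pairs of tested genes the median was 0.012, with 50.8% above 0. Within genotypes, after each genotype's mean was removed, the members' median r was 0.062. The 18 thymocyte markers, measured in the same libraries, had a median r of 0.592, with 89.5% of pairs above 0. The 21 mitotic genes had a median r of 0.011 and the 15 S phase genes 0.147.

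**Figure D3:**
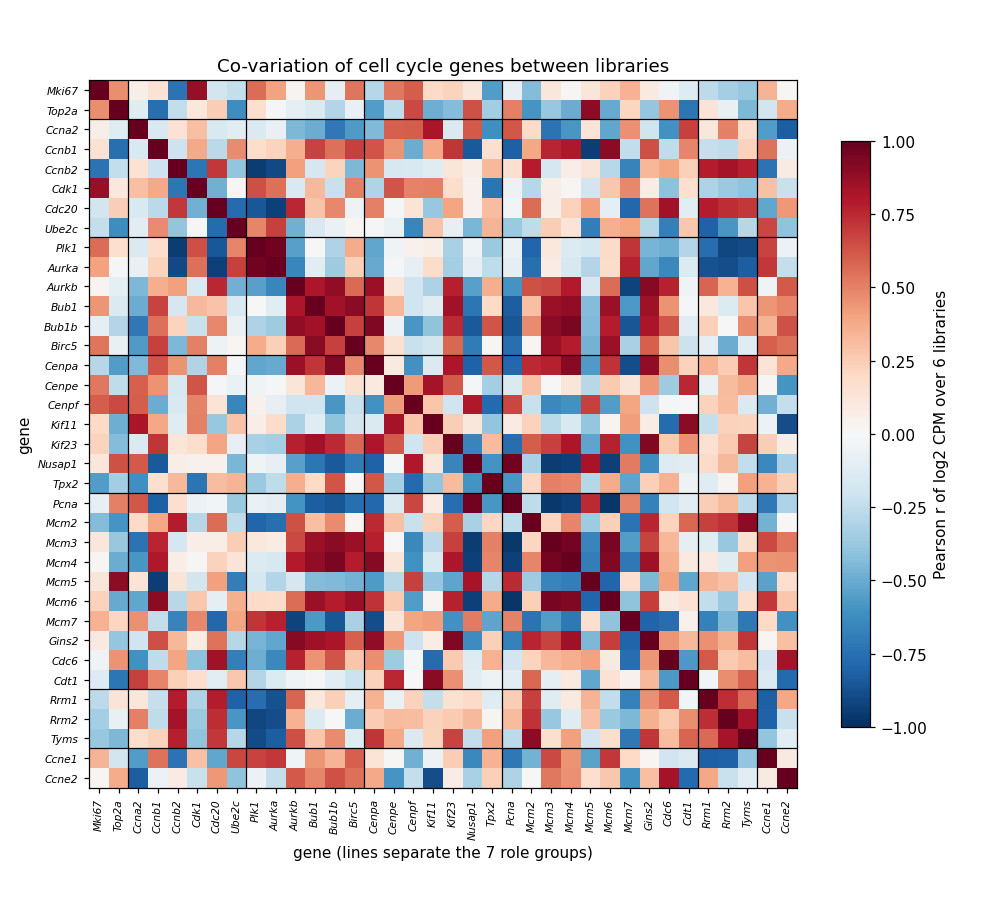
Pearson r of log2 CPM over the 6 libraries for every pair of the 36 genes, ordered by role and with lines between the 7 roles. Red and blue cells are mixed within most role blocks, Plk1 and Aurka pair at 0.97, and the MCM genes divide into pairs of both signs.

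Some pairs were close and others opposed, as in all genes. Of the 630 pairs, 13 (2.06%) had r above 0.9 and 11 (1.75%) below -0.9, beside 1.36% and 1.05% of all pairs of tested genes. Plk1 and Aurka had the highest r, 0.966, and share the gap in WT 2. Mcm3, Mcm4 and Mcm6 had r of 0.927 to 0.956 with each other, and each had r of -0.936 to -0.970 with Pcna. The values for genes of related function spread widely. The median r over the 15 pairs of MCM genes was -0.359, that of the cyclin B genes Ccnb1 and Ccnb2 was -0.206, that of Ccnb1 and Cdk1 was 0.381 and that of Aurkb and Birc5 was 0.566. The 3 nucleotide synthesis genes had r of 0.566 to 0.828. With only 6 libraries a single one can set these values.

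No library was high or low for the whole set. WT 2 held the highest value of 10 members, MUT 2 of 9, WT 1 and MUT 3 of 6 each, WT 3 of 3 and MUT 1 of 2. As shares these were 27.8% for WT 2 and 25% for MUT 2, where 18.5% and 19.1% of all genes tested were highest, and 5.56% for MUT 1, where 17.7% were. WT 1, WT 3 and MUT 3 held 16.7%, 8.33% and 16.7%, beside 22.9%, 11.3% and 10.4% of all genes. The lowest value lay in WT 1 for 12 members, or 33.3%, where 34.2% of all genes tested were lowest in WT 1. WT 1 also held under 10 counts for 7 members (19.4%), beside 21.9% of all genes, and had the fewest gene IDs counted. WT 2 held under 10 counts for 4 members and MUT 2 for 2, while WT 3, MUT 1 and MUT 3 had none.

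The 36 genes summed to 1326, 2284 and 1212 CPM in WT and 943, 1202 and 1338 CPM in MUT, and 1169 CPM of the WT 2 sum was Ccnb2. Without Ccnb2 the sums were 1302, 1115 and 1159 CPM in WT (1192 ± 97.6) and 925, 1182 and 1323 CPM in MUT (1143 ± 202), a difference smaller than the spread in either genotype's libraries. By the sum of the 18 markers, WT 2 and MUT 2 held the most RNA of thymocyte marker genes. Single markers differed, with Rag1 at 8.04, 23.4 and 4.71 CPM in WT 1, 2 and 3 but Cd3e at 128.6, 55.2 and 26.5 CPM. The sums of WT 2 and MUT 2 over all 36 genes were the highest and the fifth highest of the 6, and without Ccnb2 the fifth and the third highest. By the median log2 CPM of the 35 genes without Ccnb2, which weighs each gene equally, they were the second and the third highest, at 4.56 and 4.37, beside 4.15 and 4.18 in WT 1 and 3 and 3.79 and 4.78 in MUT 1 and 3. The part of dividing thymocytes in these levels was not tested.

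**Figure D4:**
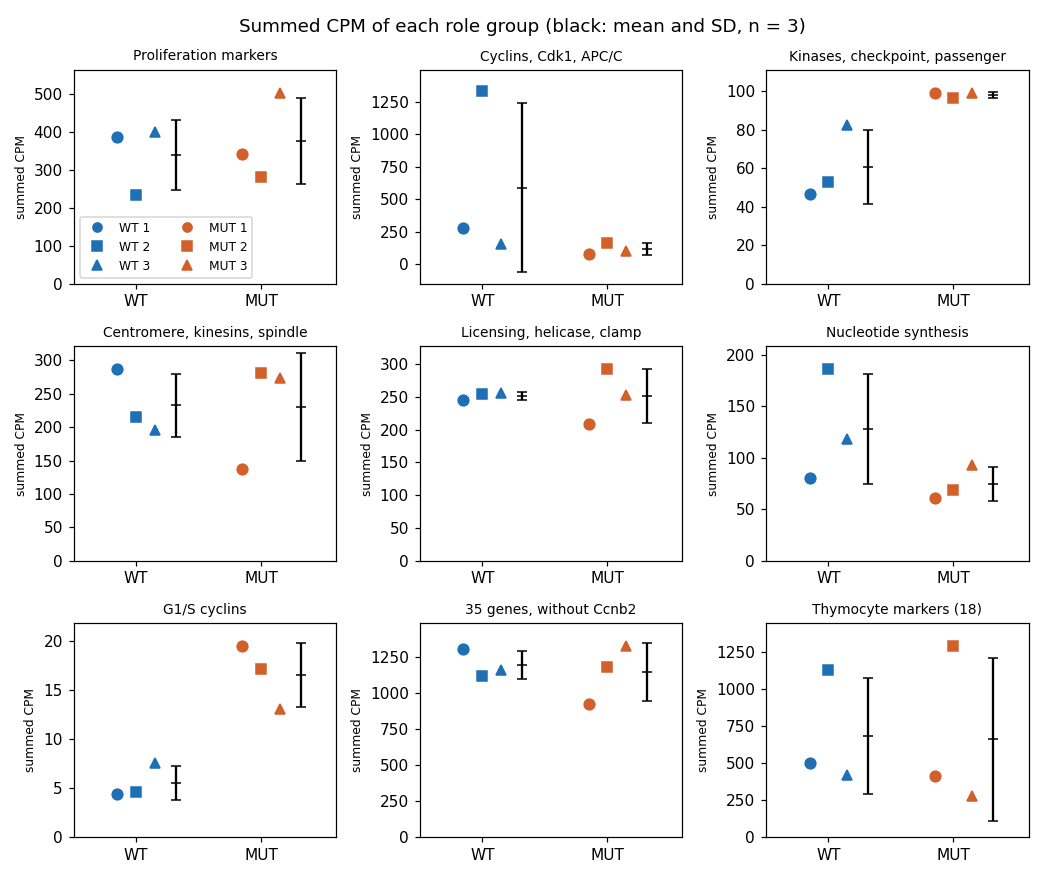
Summed CPM of each of the 7 role groups, of the 35 genes other than Ccnb2 and of the 18 thymocyte markers, in each library by genotype, with the mean and SD of 3 libraries in black. The replication sum is level at 209 to 292 CPM, and the thymocyte sum is high in both libraries numbered 2. The sums of the kinases and of the G1/S cyclins do not overlap between genotypes, and the latter is mostly Ccne1 in MUT. No share for comparable sums of genes was taken.

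Other genes of the cell cycle were read from 4 lists, and in each of them 0 genes passed edgeR's test, DESeq2, limma-voom or edgeR without a filter. Of 39 tested further S phase genes 21 were fitted above 0 (median log2 fold change 0.01), and 0 had an unadjusted p under 0.05. None of them was higher in every MUT library. Exo1, a repair nuclease gene with the smallest p of that list, ranged from 0.09 CPM in MUT 1 to 56.8 CPM in MUT 2, and Gins4, its highest per kilobase, had a log2 fold change of -0.12 (SE 0.68). Of 73 tested further mitotic genes 48 were above 0 (median 0.25), and 1 higher and 1 lower gene had an unadjusted p under 0.05. Its members that did not overlap were Ncapg2 and Cep55, higher in every MUT library, and Kifc1 and Ncapd2, lower in all. Ncapg2, a condensin subunit gene, measured 1.61, 2.02 and 9.42 CPM in WT and 29.2, 30.3 and 24.5 CPM in MUT, giving a log2 fold change of 2.68 (SE 1.00, unadjusted p 0.020). Tubb5, a tubulin gene and the highest of the list per kilobase, averaged 300.1 ± 69.4 CPM over WT and 287 ± 31.6 CPM over MUT. Summed, the further mitotic genes gave 1659 to 1847 CPM in WT and 1567 to 2056 CPM in MUT.

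Among 24 tested regulators of the programme, such as the E2F, FoxM1 and MuvB genes, 14 were above 0 (median 0.19), and 1, Tfdp2, had an unadjusted p under 0.05. E2f2 and Lin52 were higher in every MUT library, and Mybl2, Tfdp2 and Nfyc were lower in all. Tfdp2, which pairs with E2F proteins, measured 264, 54.6 and 38.3 CPM in WT and 23.3, 32.6 and 37.5 CPM in MUT, giving a log2 fold change of -1.93 (SE 0.69, unadjusted p 0.016), with WT 3 and MUT 3 close together. Myc, the highest of these per kilobase, averaged 77.4 ± 22.3 CPM over WT and 87.3 ± 26.1 CPM over MUT. Of 21 tested G1 cyclins, kinases and inhibitors 13 were above 0 (median 0.27), and 0 had an unadjusted p under 0.05. Cdkn1a, the p53-induced inhibitor p21 of Cdk2, was the highest of that list per kilobase and measured 526, 819 and 525 CPM in WT and 177, 562 and 370 CPM in MUT (fitted log2 fold change -0.75, SE 0.40, unadjusted p 0.086), with MUT 2 above 2 WT libraries.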

How the data were processed

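RNA sequencing libraries of mTEC from WT and MUT mice were compared, 3 per genotype, with groups and replicate numbers from the sample titles. Per the labels' protocols, total RNA was amplified to cDNA with Nugen Ovation and made into Nextera XT libraries. The authors deposited raw read counts per Ensembl gene ID without normalization. The submitters' processing notes name GRCm38 as build and list DESeq2 1.26.0 and STAR 2.4.2a without saying what each did. How reads were assigned to genes, including strand, is not given in the sources used here, so overlapping genes are uncertain. Besides Nusap1, Mcm7 and Ccna2, such members include Cdc20 (with Elovl1), Ube2c (Tnnc2), Gins2 (Gse1) and Ccne2 (Ints8). Of 43432 IDs, 42462 were matched to a symbol. GENCODE M21 (GRCm38) gave coordinates and exon lengths.

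The fit was edgeR 4.0.16 (R 4.3.3) on all genes: filterByExpr (about 10 counts in at least 3 libraries), TMM, robust quasi-likelihood F-tests, genotype as the only term, and Benjamini-Hochberg adjustment at 0.05. The F-test gives no SE, so each edgeR SE is the absolute log2 fold change divided by the square root of F. CPM values use TMM-scaled library sizes, and log2 CPM a prior count of 2. Alternatives were DESeq2 1.42.0, limma-voom (limma 3.58.1), other size factors and filters, the replicate number as a block, an adjusted p of 0.1 and each library left out. The set without Ccnb2 was added after seeing the data. No pair of libraries of 1 genotype agreed within sampling noise (lowest chi-square per degree of freedom 181).

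The members and lists were chosen with earlier results of these data known. Full statistics were set for Mki67, Top2a, Pcna, Ccnb1, Ccnb2, Cdk1 and, in each of 7 roles, the member highest per kilobase and the member with the smallest p. From 4 lists of other cell cycle genes the same 2 genes were named. Ccna2, Mcm3, Cdk2 and the other genes named for non-overlap were chosen after their values were seen.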

Additional observations from a re-analysis of the deposited data

How the results depend on the processing

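The count of 0 called cell cycle genes held in edgeR with upper-quartile normalization, with the size factors of DESeq2, without a filter, with the stricter filter (5 CPM in at least 3 libraries), the replicate block, an adjusted p of 0.1 and each library left out, and in limma-voom and DESeq2 with the block. It became 1, Ccne1, in DESeq2. Over all genes the count of 0 became 116 in DESeq2, 302 in DESeq2 with the block, 73 in edgeR without a filter and 1 in edgeR with the block, and the cause was not tested. The members' median log2 fold change stayed between -0.04 and 0.29 with 1 library left out, and between 0.09 and 0.22 under the other settings. Over all genes the median moved from -0.01 to 0.158 in DESeq2, 0.160 without a filter and 0.196 in DESeq2 with the block. There it lay above the members' 0.094, 0.106 and 0.18. None of these fits used the count filter, so their medians over all genes took in genes that the filter removes. With the filter the order also turned without WT 1 (0.054 over all genes against 0.0028 for the members). 3 named genes changed sign, each with a fitted difference smaller than its SE with all libraries: Top2a was 0.090 with upper-quartile normalization and -0.34 to 0.36 with a library left out, Mki67 was -0.058 to 0.38 with a library left out, and Cdk1 was 0.13 with the replicate block, 0.10 in DESeq2 with the block, 0.71 in limma-voom and -0.77 to 0.97 with a library left out. In the labels the source names of WT and MUT libraries with 1 number share an ending whose meaning is not given. Their deviations from the genotype means correlated at 0.059 to 0.127, each the highest for that library across genotypes, which is a hint from the data and not the design, and the replicate block was kept as an alternative. Genes at under 10 counts in a library, such as Cdc6 and Birc5, carry the least precise levels, and amplified reads are not independent molecules.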

Other observations

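Genes outside the cell cycle also had single high libraries of the kind seen for Ccnb2. The highest library was at least 10-fold above the next for 230 of the 17172 genes tested (1.34%), and for 38 genes that library was WT 2. Among the members Ccnb2 alone met this.

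The E cyclin gene Ccne1 was higher in every MUT library, and so was Cdk2, the gene of its kinase. The other E cyclin gene, Ccne2, overlapped between genotypes. Taken singly, 5.39% of all genes tested were higher in every MUT library, and no share for pairs of genes was taken. Of the 21 other G1 cyclins, kinases and inhibitors, Cdk2 was the 1 gene higher in every MUT library and Ccng1 the 1 gene lower in all, where 3.96% of all genes were. Cdk2, chosen after its values were seen, measured 5.69, 7.20 and 7.22 CPM in WT and 12.7, 13.5 and 8.27 CPM in MUT, giving a log2 fold change of 0.78 (SE 1.07, unadjusted p 0.48), within its SE. MUT 3 was the lowest MUT library for both Ccne1 and Cdk2, and lay close to the WT libraries for Cdk2 but not for Ccne1. Cdkn1a, which encodes an inhibitor of Cdk2, overlapped between genotypes.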
